A study of Mus musculus with 6 samples.

Results

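The 32 genes described here encode the enzymes of cholesterol and fatty acid synthesis and their closest regulators. They were taken by name from a table of 55401 gene identifiers, and all 32 were expressed strongly enough to be among the 19227 genes tested. They were measured by bulk RNA-seq in mouse back skin at E15.5, in 3 Prmt5 cKO embryos, which carry a conditional deletion of Prmt5 (the arginine methyltransferase PRMT5), and in 3 control embryos, with 1 library for each embryo. The study is about loss of PRMT5 from the epidermis. The deposited table calls the mutants CRECT, and a Cre line of that name is active in embryonic surface ectoderm, which does not include the dermis of the back. The labels give the control embryos no further genotype. Each library held epidermis and dermis together, so fewer cells of a type and less RNA per cell cannot be told apart.

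Cholesterol is built from acetyl-CoA through mevalonate and isoprenoid units to squalene, which is closed into lanosterol and then trimmed in a series of demethylation, reduction and isomerisation steps. Fatty acids start from the same cytosolic acetyl-CoA, which ATP citrate lyase makes from citrate. The transcription factors SREBP-1 and SREBP-2 (genes Srebf1 and Srebf2) switch on most of these genes when membrane sterol is low, and INSIG proteins hold them back when it is high. In skin, cholesterol and fatty acids, together with ceramides, form the lipid sheets of the epidermal barrier, which is being built at this stage of development.

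Library totals were between 45371876 and 58309148 counts in Prmt5 cKO embryos and between 35667634 and 66122667 in control embryos. Prmt5 itself averaged 28.2 ± 2.17 CPM (counts scaled to library size) in Prmt5 cKO libraries and 59.2 ± 16.6 CPM in control libraries (SD, n = 3 each), and its log2 fold change was -1.07 ± 0.19 (SE). Markers of cell types differed between the groups. The 15 pan-epithelial markers summed to between 2900.8 and 3238.0 CPM in Prmt5 cKO libraries, against 6278.1 to 6776.9 CPM in control libraries, and 13 of the 15 fell. All 10 spinous and granular keratinocyte markers fell, with sums of 305.3 to 393.9 CPM in Prmt5 cKO libraries and 16942.8 to 22832.5 CPM in control libraries. All 10 dermal fibroblast markers rose, as did all 10 skeletal muscle markers, 9 of 10 endothelial markers and 5 of 10 leukocyte markers. Of 9 Schwann cell markers 3 rose and 2 fell, and none of 8 erythroid markers passed the test. Of 10 adipocyte and sebocyte markers, 7 were tested: Adipoq and Lpl rose, Cebpa fell and 4 did not pass. Plin1, Cidec and Lep had counts in too few libraries to pass the expression filter. Some of these genes set Prmt5 cKO library 2 apart, and to a lesser degree library 3. Adipoq, the adipocyte hormone adiponectin, had 0, 53.4 and 9.56 CPM in Prmt5 cKO libraries 1 to 3, against 0, 0.0604 and 0.285 CPM in control libraries 1 to 3. Plin1, which coats adipocyte lipid droplets, had 0, 30.3 and 6.23 CPM in Prmt5 cKO libraries and no counts in any control library. Cebpa, a transcription factor of adipocytes that keratinocytes also express, had 28.8, 62.0 and 36.8 CPM in Prmt5 cKO libraries, against 126.7, 130.9 and 120.4 CPM in control libraries (log2 fold change -1.56, adjusted p = 0.00127). The summed adipocyte and sebocyte list came to 219.9, 533.3 and 279.2 CPM in Prmt5 cKO libraries 1 to 3 and 292.3, 250.3 and 284.5 CPM in control libraries 1 to 3. The part of cell composition in the results below was not tested.

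Of the 32 genes, 28 fell in Prmt5 cKO skin at an adjusted p under 0.05 in edgeR's quasi-likelihood test, none rose, and 4 did not pass. Over all genes tested, 19.6% fell and 16.3% rose; among the 9748 genes at least as expressed as the least expressed member, 28.3% fell and 20.8% rose, 49.1% in all. The groups did not overlap for any of the 28 genes that fell, where 26.6% of all genes were lower and 23.3% higher without overlap. The median log2 fold change of the 32 genes was -0.72, a level of 60.5% of control, and that of all genes tested was -0.008. All 7 genes of the mevalonate steps and all 12 of the sterol steps fell, with medians of -0.94 and -0.76. All 5 fatty acid synthesis genes fell (median -0.57), as did 3 of 4 genes of regulation and sterol transport (median -0.38), but only 1 of 4 desaturase genes (median -0.01). The 4 genes that did not pass were Srebf1, Scd1, Fads1 and Fads2. DESeq2 called 27 of the 32 lower and none higher, and without edgeR's adjustment 28 were lower and 1, Fads2, was higher at a p under 0.05.

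**Figure D1:**
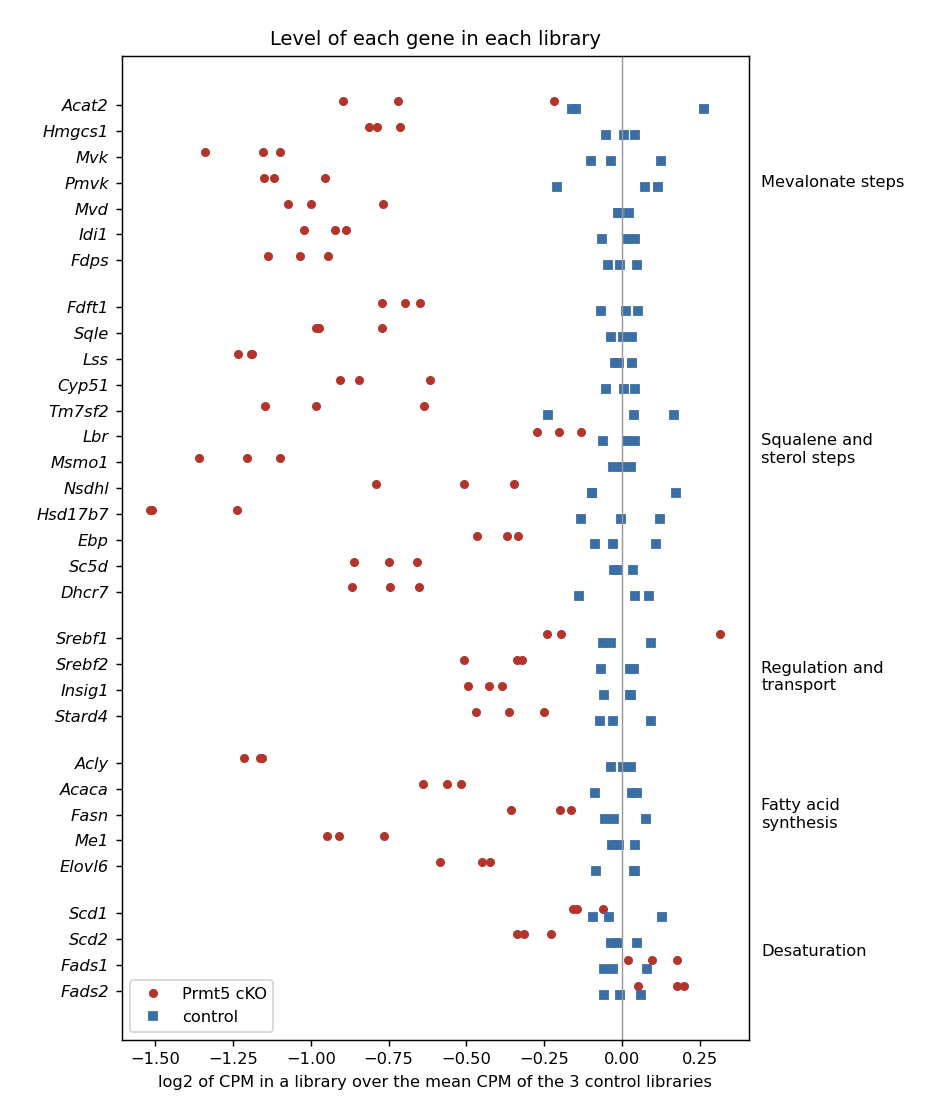
Level of each of the 32 genes in each library, as the log2 of its CPM over the mean CPM of the 3 control libraries, with circles for Prmt5 cKO libraries, squares for control libraries and the genes ordered by role. For 28 genes every Prmt5 cKO point lies below every control point, and for Srebf1, Scd1, Fads1 and Fads2 the groups overlap.

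The promoters of 4 members are shown because they bear on the elements through which SREBPs and their partners are known to act. RefSeq promoter windows on GRCm38.p6, from 250 bases before to 50 bases after a gene's start, were found for 25 of the 32 genes, in 31 windows. Hmgcs1 (chr13:119690101-119690400, plus strand) is shown because it alone among the 25 members with a window holds the sterol regulatory element searched. The other members were not searched. Hsd17b7 (chr1:169969156-169969455, minus strand) and Msmo1 (chr8:64733529-64733828, minus strand) are shown as the 2 genes with the largest falls, and Fads2 (chr19:10101454-10101753, minus strand) as a gene that did not fall. Each is written 5′ to 3′ on the gene's strand, with CCAAT or its reverse complement in capitals, and in Hmgcs1 also the sterol regulatory element.
Hmgcs1: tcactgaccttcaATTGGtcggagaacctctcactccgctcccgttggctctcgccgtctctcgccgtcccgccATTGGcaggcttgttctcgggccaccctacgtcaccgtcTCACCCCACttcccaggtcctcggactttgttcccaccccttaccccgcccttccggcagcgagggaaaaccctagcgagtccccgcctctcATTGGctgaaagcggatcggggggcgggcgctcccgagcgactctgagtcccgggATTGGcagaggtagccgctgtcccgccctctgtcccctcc
Hsd17b7: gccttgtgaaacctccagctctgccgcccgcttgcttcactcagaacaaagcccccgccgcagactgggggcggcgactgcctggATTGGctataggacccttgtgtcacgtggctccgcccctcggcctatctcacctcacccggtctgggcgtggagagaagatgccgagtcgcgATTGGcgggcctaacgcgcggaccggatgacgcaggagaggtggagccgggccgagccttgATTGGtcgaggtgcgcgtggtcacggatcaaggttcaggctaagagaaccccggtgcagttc
Msmo1: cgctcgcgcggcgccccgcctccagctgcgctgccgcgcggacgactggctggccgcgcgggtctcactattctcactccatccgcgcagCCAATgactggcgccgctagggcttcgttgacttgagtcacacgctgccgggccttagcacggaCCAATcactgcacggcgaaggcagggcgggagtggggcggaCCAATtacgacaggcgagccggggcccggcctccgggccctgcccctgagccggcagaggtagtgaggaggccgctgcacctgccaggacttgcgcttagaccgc
Fads2: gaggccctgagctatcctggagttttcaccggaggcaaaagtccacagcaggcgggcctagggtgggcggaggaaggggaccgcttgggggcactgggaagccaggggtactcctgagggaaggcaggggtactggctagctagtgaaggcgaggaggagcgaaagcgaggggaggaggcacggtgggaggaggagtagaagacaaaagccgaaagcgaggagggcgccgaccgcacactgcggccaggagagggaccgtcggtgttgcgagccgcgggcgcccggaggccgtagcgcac

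A set of 4 motifs was searched as exact letters on both strands, and no match of one overlapped a match of another. CCAAT, the box bound by NF-Y, a partner of SREBP on sterol gene promoters, stood in the windows of 21 of the 25 matched members (84.0%), against 42.4% of the 12764 tested genes with a window and 41.1% of all 27025 genes with one. It was present in all 10 sterol enzymes with a window, in 5 of 6 mevalonate genes, in 3 of 3 regulators and in 3 of 5 fatty acid synthesis genes. The 4 matched members without it were Acat2, Acaca and Elovl6, which fell, and Fads2, which did not. Srebf1, which did not pass the test either, held the box. GGGCGG, the Sp1 box, was also in 21 of 25 (84.0%), against 64.1% of tested genes. TCACNCCAC, the sterol regulatory element, was in 1 of 25 (4.0%) against 1.38% of tested genes, and TCACGTGA, an E-box form, was in none against 1.9%. In Hsd17b7 the CCAAT matches all read on the opposite strand, starting at -165, -73 and -12 from the gene's start. In Msmo1 they all read on the gene's own strand, at -160, -96 and -55, and in Hmgcs1 the sterol regulatory element began at -137. A match is a description of letters and not a site of binding. Lack of an exact match does not show that no such element is present. The Hsd17b7 window, for example, holds TCACGTGG, which differs by 1 letter from the E-box form searched.

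The mevalonate steps were lower at every enzyme measured. Hmgcs1 (chr13, 119690379 to 119708260) encodes the cytosolic HMG-CoA synthase, which joins acetyl-CoA to acetoacetyl-CoA. Hmgcs1 had 192.0, 182.2 and 179.3 CPM in Prmt5 cKO libraries 1 to 3, against 303.9, 323.6 and 316.4 CPM in control libraries 1 to 3. The groups lay far apart and each was tight, with a log2 fold change of -0.77 ± 0.05 (SE, adjusted p = 1.11e-05). Mvk, mevalonate kinase, had 35.5, 36.9 and 31.2 CPM in Prmt5 cKO libraries, against 86.2, 73.8 and 77.1 CPM in control libraries. Its log2 fold change of -1.19 ± 0.08 (adjusted p = 1.47e-05) was the largest fall of the mevalonate group. Pmvk, phosphomevalonate kinase, took the next step and averaged 47.6% of control, at 19.0, 21.3 and 18.6 CPM in Prmt5 cKO libraries and 44.7, 35.7 and 43.4 CPM in control libraries (log2 fold change -1.07 ± 0.10, adjusted p = 9.15e-05). Its highest Prmt5 cKO library was still below its lowest control library.

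The enzymes that make and join isoprenoid units fell by similar amounts. Mvd, which decarboxylates mevalonate diphosphate to isopentenyl diphosphate, had 23.7, 20.2 and 19.2 CPM in Prmt5 cKO libraries and 40.0, 41.0 and 40.1 CPM in control libraries. Idi1, which isomerises that product, had 45.4, 41.4 and 44.3 CPM in Prmt5 cKO libraries and 80.3, 85.2 and 86.6 CPM in control libraries. Both had a log2 fold change of -0.94, with adjusted p = 7.33e-05 for Mvd and 5.83e-06 for Idi1, and neither had overlapping groups. Fdps, farnesyl diphosphate synthase, had 92.2, 80.8 and 86.6 CPM in Prmt5 cKO libraries, against 183.5, 176.9 and 172.3 CPM in control libraries, with a log2 fold change of -1.04 ± 0.06 (adjusted p = 4.79e-06). Fdps shared 16.0% of its 31-base words with the processed pseudogene Gm3571 and Idi1 18.4% with the processed pseudogene Gm13502, so their counts could be split among copies. Fdps also shared 26.7% of its exon bases with the gene model Gm43738 on the same strand, which held 97 counts over the 6 libraries, against 39080 for Fdps.

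Acat2, the cytosolic thiolase that makes acetoacetyl-CoA, was the least certain of the mevalonate genes. It had 56.5, 80.0 and 50.0 CPM in Prmt5 cKO libraries, against 83.3, 84.1 and 111.8 CPM in control libraries. Prmt5 cKO library 2 stood close to the 2 lower control libraries, and the groups were separated only narrowly. The log2 fold change was -0.58 ± 0.18 (adjusted p = 0.0355), and the call was lost without any one library other than Prmt5 cKO library 2 (adjusted p from 0.0513 to 0.132) and in DESeq2 (adjusted p = 0.0838). Without Prmt5 cKO library 2 the log2 fold change was -0.80 (adjusted p = 0.00433). Acat2 shared 43.7% of its 31-base words with its neighbour Acat3, which held 13.9% to 16.2% of the counts of the pair. The pair summed to 65.7, 93.7 and 58.5 CPM in Prmt5 cKO libraries and 96.9, 98.3 and 133.4 CPM in control libraries, also without overlap. Acat2 had the widest spread of the 32 genes in both groups, with coefficients of variation of 25.4% in Prmt5 cKO and 17.4% in control libraries, where the medians over the 32 genes were 6.82% and 4.22%.

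The steps from farnesyl diphosphate to lanosterol followed the same direction. Fdft1, squalene synthase, had 60.9, 63.0 and 57.8 CPM in Prmt5 cKO libraries, against 102.4, 94.2 and 99.5 CPM in control libraries (log2 fold change -0.70 ± 0.05, adjusted p = 2.45e-05). Fdft1 overlaps Ctsb on the opposite strand over 18.3% of its exon bases, and Ctsb rose (log2 fold change 0.27), and the counting is not stated to use strand, so the reads of this overlap cannot be told apart. Sqle, the epoxidase that adds oxygen to squalene, had 111.1, 96.0 and 96.6 CPM in Prmt5 cKO libraries and 190.0, 193.9 and 185.2 CPM in control libraries (log2 fold change -0.91 ± 0.07, adjusted p = 1.83e-05). Lss (chr10, 76531588 to 76557138), lanosterol synthase, closes the sterol rings. Lss had 38.7, 37.5 and 38.6 CPM in Prmt5 cKO libraries, against 87.6, 86.8 and 90.1 CPM in control libraries. Its replicates were the closest of the 32 genes in Prmt5 cKO skin, with a coefficient of variation of 1.85%, and its log2 fold change was -1.20 ± 0.05 (adjusted p = 4.88e-07), the smallest adjusted p of the 32 genes.

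The lowest log2 fold changes of all members, those of Hsd17b7 and Msmo1, were in enzymes that remove the methyl groups at carbon 4 of the sterol, although Msmo1, Lss and Mvk lay within their standard errors of each other. Hsd17b7 (chr1, 169949535 to 169969241), the 3-ketosteroid reductase of this step, had 30.1, 24.9 and 24.8 CPM in Prmt5 cKO libraries, against 64.8, 70.8 and 77.2 CPM in control libraries. All Prmt5 cKO libraries were less than the lowest control library by a wide margin, the mean was 2.67-fold lower, and the log2 fold change was -1.42 ± 0.10 (adjusted p = 1.34e-05). Msmo1 (chr8, 64718139 to 64733792), the methylsterol monooxygenase, had 49.4, 41.2 and 45.9 CPM in Prmt5 cKO libraries, against 103.7, 105.7 and 107.8 CPM in control libraries, with a log2 fold change of -1.22 ± 0.07 (adjusted p = 4.14e-06). Nsdhl, the X-linked dehydrogenase that acts between them, had a smaller fall. It had 25.1, 30.5 and 34.1 CPM in Prmt5 cKO libraries and 48.9, 40.6 and 40.6 CPM in control libraries, without overlap and with a log2 fold change of -0.54 ± 0.12 (adjusted p = 0.00912).

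Nsdhl and Ebp, the sterol isomerase, are the X-linked members, and the libraries were not alike in Xist, the RNA of the inactive X chromosome. Xist had 0, 488.0 and 465.4 CPM in Prmt5 cKO libraries 1 to 3 and 483.2, 0.04529 and 0 CPM in control libraries 1 to 3. Ebp had 19.9, 20.4 and 18.6 CPM in Prmt5 cKO libraries and 25.2, 24.2 and 27.7 CPM in control libraries, a log2 fold change of -0.39 ± 0.08 (adjusted p = 0.00643). With presence of Xist as a term of the fit, a setting added after the data were seen, the log2 fold change was -0.65 for Nsdhl (adjusted p = 0.000495) and -0.38 for Ebp (adjusted p = 0.0148), so both calls stood.

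The remaining sterol enzymes fell too, by amounts that differed. Cyp51, the 14-demethylase, had 95.1, 77.8 and 81.3 CPM in Prmt5 cKO libraries and 150.3, 146.5 and 141.0 CPM in control libraries (log2 fold change -0.78 ± 0.08, adjusted p = 1.04e-04). Sc5d, the sterol desaturase, had 38.1, 33.1 and 35.8 CPM in Prmt5 cKO libraries and 59.1, 61.6 and 59.6 CPM in control libraries. Dhcr7, the reductase of the last step in one branch, had 56.5, 48.7 and 53.0 CPM in Prmt5 cKO libraries and 94.4, 91.4 and 80.8 CPM in control libraries. Sc5d and Dhcr7 both had a log2 fold change of -0.75 and groups that stood apart, with adjusted p = 4.71e-05 and 1.33e-04.

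The 14-reductase step has a pair of enzymes, Tm7sf2 and Lbr. Lbr is also a protein of the inner nuclear membrane that binds lamin B. Tm7sf2 had 12.2, 9.6 and 8.57 CPM in Prmt5 cKO libraries, against 19.5, 16.1 and 21.3 CPM in control libraries (log2 fold change -0.90 ± 0.15, adjusted p = 0.00228). Lbr had 99.6, 95.0 and 90.3 CPM in Prmt5 cKO libraries, against 104.7, 112.4 and 110.5 CPM in control libraries. Its groups stood close together, its log2 fold change of -0.20 ± 0.05 was the smallest fall of the genes that passed (adjusted p = 0.0194), and the call was lost when any 1 of 4 libraries was left out: Prmt5 cKO library 2 (adjusted p = 0.0558) or 3 (0.0701), or control library 2 (0.0597) or 3 (0.0563). Per length, the Tm7sf2 level averaged 0.115 of the Lbr level in Prmt5 cKO skin and 0.188 in control skin. Tm7sf2 shares 12.1% of its exon bases with Vps51 on the same strand, and Lbr 9.2% with Dnah14 on the opposite strand.

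**Figure D2:**
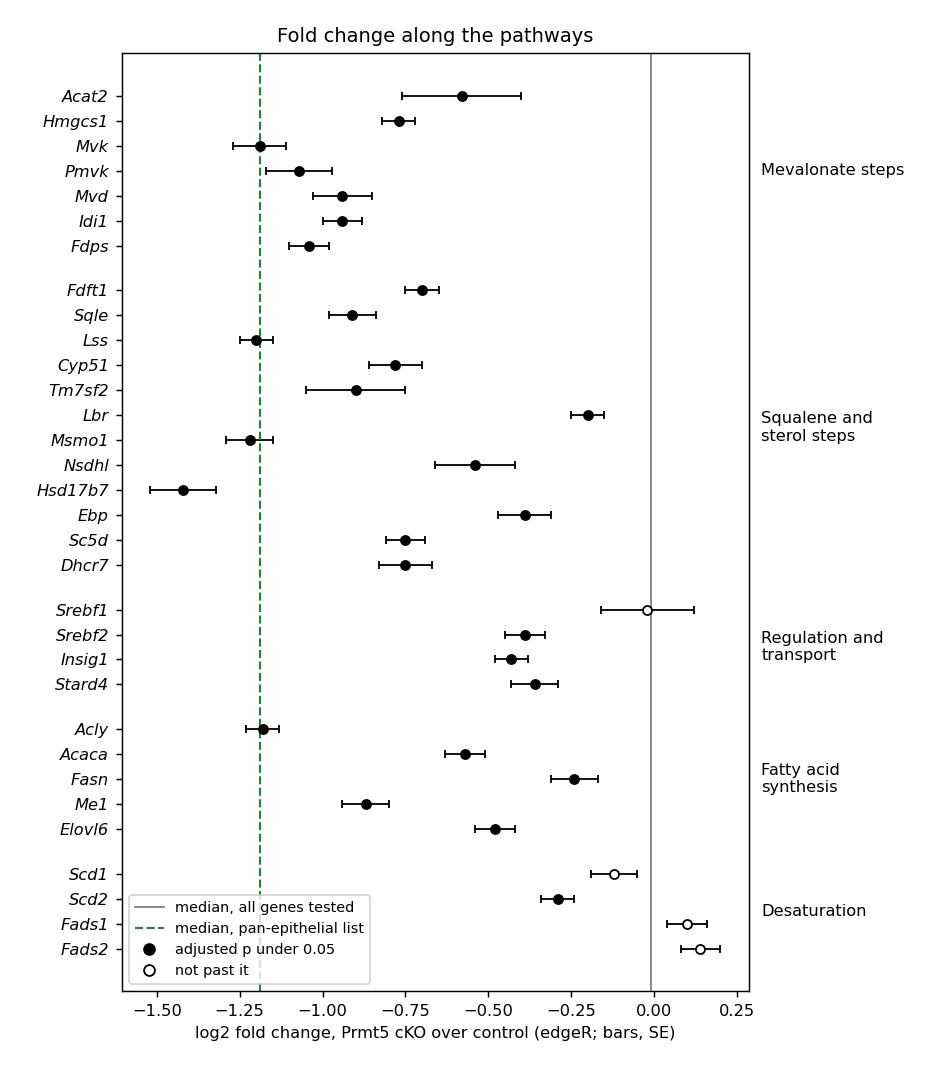
Log2 fold change (Prmt5 cKO over control, edgeR) of each of the 32 genes with its standard error (bars), grouped by role, filled where the adjusted p was under 0.05, with the median of all genes tested and the median of the pan-epithelial markers as lines. Mvk, Lss, Msmo1 and Hsd17b7 lie below the pan-epithelial median of -1.19, and the other 28 genes lie above it. Mvk, Lss, Msmo1 and Acly lie within their standard errors of that median.

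Since epithelial markers fell in the same libraries, the size of each fall was set beside theirs. The 15 pan-epithelial markers had a median log2 fold change of -1.19, and their summed level in Prmt5 cKO skin was 0.475 of that in control skin. These markers were mixed, from -2.77 for Ovol1 to 0.70 for St14. Krt5 was at -0.66, Cdh1 at -0.75, Krt14 at -1.19 and Trp63 at -1.86. How many members fell by more than the median thus depends on the markers chosen. Only Mvk, Lss, Msmo1 and Hsd17b7 fell by more than that median, and 28 of the 32 genes did not. Mvk (-1.19 ± 0.08), Lss (-1.20 ± 0.05) and Msmo1 (-1.22 ± 0.07) lay within their standard errors of it. So did Acly (-1.18 ± 0.05), just above it. In all, 7 genes had a log2 fold change below -1. The summed level of the mevalonate genes was 54.5% of control and that of the sterol genes 57.4%, against 62.3% for fatty acid synthesis, 80.5% for regulation and transport, and 84.4% for the desaturases. Sums weigh the highest genes most. Scd2 made up 954.5 of the mean desaturase sum of 1120.9 CPM in Prmt5 cKO skin, and 1168.6 of 1327.9 CPM in control skin. The median desaturase gene was at 99.3% of control. The sum over the 32 genes was 3503.0, 3395.8 and 3244.0 CPM in Prmt5 cKO libraries and 4995.7, 4936.0 and 4973.7 CPM in control libraries, a difference several times the range within either group.

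Among the genes of regulation and transport, Srebf2, Insig1 and Stard4 fell by less than the median of the 32 genes. Srebf2 (chr15, 82147181 to 82205379), the SREBP best known for sterol genes, had 258.1, 254.9 and 227.0 CPM in Prmt5 cKO libraries, against 331.1, 328.3 and 307.7 CPM in control libraries. The groups did not overlap, and the log2 fold change was -0.39 ± 0.06 (adjusted p = 0.00186). Insig1, which retains SREBPs in the endoplasmic reticulum and is itself an SREBP target, had 47.8, 46.5 and 44.3 CPM in Prmt5 cKO libraries and 63.6, 63.8 and 60.0 CPM in control libraries (log2 fold change -0.43 ± 0.05, adjusted p = 4.17e-04). Stard4, a carrier that moves cholesterol between membranes, had 84.6, 72.7 and 78.2 CPM in Prmt5 cKO libraries and 95.8, 107.5 and 98.7 CPM in control libraries (log2 fold change -0.36 ± 0.07, adjusted p = 0.00411). Per length, the Hsd17b7 level averaged 0.152 of the Srebf2 level in Prmt5 cKO skin and 0.311 in control skin, and Fdps averaged 1.38 times Insig1 in Prmt5 cKO skin and 2.09 times in control skin, with no overlap in either ratio.

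Srebf1 (chr11, 60199089 to 60222581), the SREBP best known for fatty acid genes, behaved differently among the Prmt5 cKO libraries. It had 90.0, 132.3 and 92.7 CPM in Prmt5 cKO libraries 1 to 3, against 113.3, 101.9 and 103.6 CPM in control libraries 1 to 3. Prmt5 cKO library 2 was above every control library and the other Prmt5 cKO libraries were below every one. The log2 fold change was -0.02 ± 0.14 (adjusted p = 0.945). Without Prmt5 cKO library 2, which had the highest adipocyte sum, it was -0.22 and passed the test (adjusted p = 0.0404). In that library Cidec, a lipid droplet protein of adipocytes, had 10.5 CPM, against 0 and 2.32 CPM in Prmt5 cKO libraries 1 and 3 and no counts in control libraries. Fabp4, the adipocyte fatty acid binding protein, had 55.8, 171 and 69.8 CPM in Prmt5 cKO libraries and 63.1, 32.8 and 54.4 CPM in control libraries. The part of these cells in the Srebf1 level was not tested. The count of genes that fell was also 28 without that library, where Srebf1 entered and Lbr left.

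**Figure D3:**
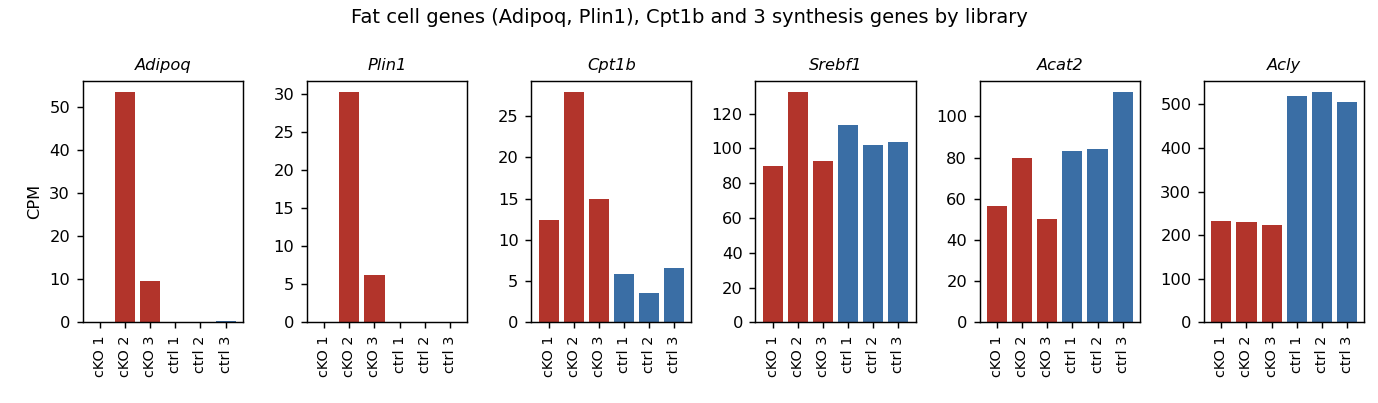
CPM in each library (bars) of the adipocyte genes Adipoq and Plin1, of Cpt1b, and of the members Srebf1, Acat2 and Acly, with Prmt5 cKO libraries left of control libraries. Adipoq reaches 53.4 CPM and Srebf1 132.3 CPM in Prmt5 cKO library 2, the highest library for both, while Acly is at 222.6 to 232.0 CPM in all 3 Prmt5 cKO libraries.

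Fatty acid synthesis was led by Acly (chr11, 100476353 to 100528000), ATP citrate lyase, which supplies acetyl-CoA to both pathways. Acly had 232.0, 230.9 and 222.6 CPM in Prmt5 cKO libraries, against 518.8, 528.2 and 504.4 CPM in control libraries. The groups stood far apart, the mean was 2.26-fold lower, and the log2 fold change was -1.18 ± 0.05 (adjusted p = 6.21e-07). Me1, malic enzyme, a source of NADPH for lipid synthesis, had 25.7, 29.2 and 26.4 CPM in Prmt5 cKO libraries and 51.0, 49.2 and 48.5 CPM in control libraries (log2 fold change -0.87 ± 0.07, adjusted p = 2.46e-05). Acaca, the acetyl-CoA carboxylase that commits acetyl-CoA to fatty acids, had 85.3, 92.9 and 90.1 CPM in Prmt5 cKO libraries and 135.9, 137.5 and 125.3 CPM in control libraries (log2 fold change -0.57 ± 0.06, adjusted p = 1.06e-04). Acaca shared 31.7% of its 31-base words with Gm5182 and Me1 28.6% with Gm7049, both processed copies elsewhere in the genome. Elovl6, which elongates palmitate, had 85.7, 76.6 and 84.2 CPM in Prmt5 cKO libraries and 118.3, 118.0 and 108.4 CPM in control libraries (log2 fold change -0.48 ± 0.06, adjusted p = 4.24e-04).

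Fasn (chr11, 120805846 to 120824547), the fatty acid synthase itself, fell the least of these 5 genes. It had 320.4, 312.5 and 280.3 CPM in Prmt5 cKO libraries, against 379.1, 345.5 and 352.7 CPM in control libraries. The groups did not overlap, but the gap between them was smaller than the range within either. The log2 fold change was -0.24 ± 0.07 (adjusted p = 0.0218), and the call was lost without Prmt5 cKO library 3 (adjusted p = 0.0602), control library 1 (0.0964) or control library 3 (0.0554). Per length, the Acly level was 1.5, 1.53 and 1.65 times that of Fasn in Prmt5 cKO libraries 1 to 3, against 2.84, 3.17 and 2.97 times in control libraries 1 to 3. This ratio does not depend on how the libraries were scaled, and its groups stood far apart. The ratios of pairs of members were chosen after their values were seen and carry no test.

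**Figure D4:**
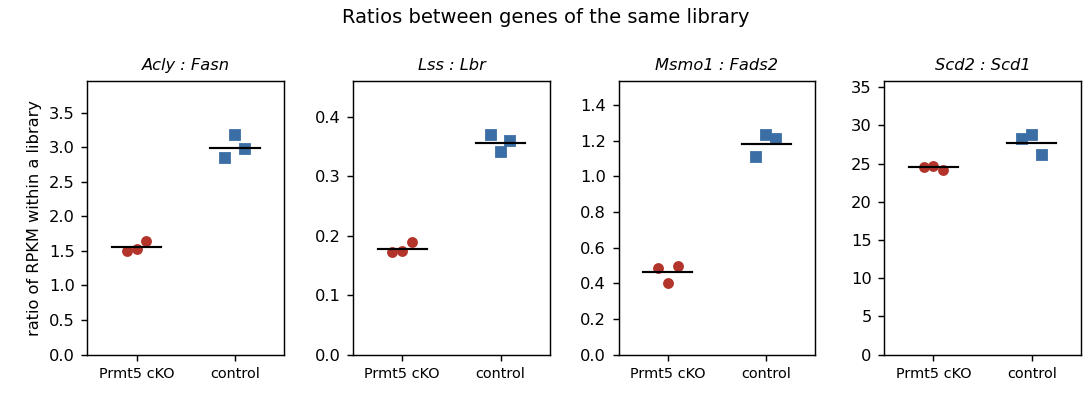
Ratios of the per-length level (RPKM) of pairs of members in each library, with Prmt5 cKO libraries left of control libraries and a bar at each mean. Acly to Fasn averaged 1.56 in Prmt5 cKO skin and 2.99 in control skin, and Lss to Lbr averaged 0.178 in Prmt5 cKO skin and 0.357 in control skin.

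Of the 4 desaturase genes, 1 fell. Scd2 (chr19, 44293674 to 44306864), a stearoyl-CoA desaturase prominent in embryonic tissues, had 998.9, 939.3 and 925.2 CPM in Prmt5 cKO libraries, against 1157.8, 1139.5 and 1208.6 CPM in control libraries. It fell without overlap, with a log2 fold change of -0.29 ± 0.05 (adjusted p = 0.00243). Scd1, its neighbour on chr19, had 36.3, 34.0 and 34.3 CPM in Prmt5 cKO libraries, against 36.8, 35.5 and 41.4 CPM in control libraries. The groups overlapped, with a log2 fold change of -0.12 ± 0.07 (adjusted p = 0.246). Scd1 shared 5.2% of its 31-base words with Scd2, whose counts were far higher, so reads given to the wrong copy could carry part of the Scd1 value. Scd2 was 24.6, 24.7 and 24.2 times Scd1 per length in Prmt5 cKO libraries and 28.2, 28.7 and 26.1 times in control libraries.

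Fads1 and Fads2, the delta-5 and delta-6 desaturases of polyunsaturated fatty acids, were the members with a positive log2 fold change. Fads1 had 82.9, 78.5 and 74.4 CPM in Prmt5 cKO libraries, against 71.9, 70.5 and 77.6 CPM in control libraries (log2 fold change 0.10 ± 0.06, adjusted p = 0.228). Fads2 had 54.3, 55.1 and 49.7 CPM in Prmt5 cKO libraries, against 50.1, 46.1 and 47.8 CPM in control libraries (log2 fold change 0.14 ± 0.06, adjusted p = 0.103). The groups of both genes overlapped in 1 library or more. Under upper-quartile scaling, under which the median log2 fold change of all genes was 0.094, against -0.008 with TMM, both passed the test as higher, with log2 fold changes of 0.20 (adjusted p = 0.0239) and 0.25 (adjusted p = 0.0109). That scaling also ended the calls of Acat2 (adjusted p = 0.0652), Lbr (0.174) and Fasn (0.118), and turned the split over all genes to 4514 higher and 2719 lower, against 3139 higher and 3767 lower with TMM. The 28 falls kept a negative sign under it. Per length, Msmo1 was 0.487, 0.401 and 0.496 of Fads2 in Prmt5 cKO libraries and 1.11, 1.23 and 1.21 times Fads2 in control libraries. The order of the pair was thus opposite in the groups. That order rests on the exon lengths used, 6144 bases for Msmo1 and 3295 for Fads2. The difference between the groups does not depend on these lengths.

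The changes altered the order of the members by level. In RPKM, the CPM per kilobase of exon, Scd2 had the highest level in both groups, at 174.7 in Prmt5 cKO and 213.9 in control skin. Acly followed at 43.3 RPKM in Prmt5 cKO and 98.0 RPKM in control skin, and Hmgcs1 at 40.2 RPKM in Prmt5 cKO and 68.5 RPKM in control skin. Among the control libraries, neighbours in this order were separated only after Scd2, Acly, Hmgcs1, Mvk, Mvd, Msmo1, Sc5d, Ebp and Scd1, and the other neighbours overlapped. Mvk took rank 17 in Prmt5 cKO skin against 10 in control skin, at 12.9 RPKM in Prmt5 cKO and 29.5 RPKM in control skin. Fads1 took rank 12 in Prmt5 cKO skin against 22 in control skin, and Fads2 rank 13 against 24, with their own levels little different. Srebf1 took rank 10 in Prmt5 cKO skin against 17 in control skin. Tm7sf2 was the lowest in both groups, at 2.30 RPKM in Prmt5 cKO and 4.31 RPKM in control skin. The order between genes depends on the exon lengths used, which include every annotated exon. Lss and Dhcr7 averaged 88.2 and 88.9 CPM in control skin, but 8.17 and 15.3 RPKM.

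Genes around the 2 pathways were read in 6 further lists of 77 genes, which differed among themselves, with medians from -0.74 to 0.08. Of 76 tested, 26 fell, 14 rose and 36 did neither, and the median log2 fold change was -0.06. Among the proteins that process SREBPs, 1 of 6 fell, Insig2 (log2 fold change -0.42, adjusted p = 0.00243), the second SREBP anchor. Mbtps1, the site-1 protease that cuts SREBPs, rose (0.16, adjusted p = 0.0236), a call lost without Prmt5 cKO library 1 (adjusted p = 0.0511), Prmt5 cKO library 2 (0.0728) or control library 3 (0.0515). Among those that did not pass, the log2 fold change was 0.07 for the SREBP escort Scap, -0.09 for the site-2 protease Mbtps2 and -0.10 for the ubiquitin ligase Rnf139. In the non-sterol branches that leave the pathway at farnesyl diphosphate, 4 of 10 fell. These were the prenyltransferase subunits Fnta (-0.33, adjusted p = 5.48e-04), Fntb (-0.38, adjusted p = 0.0037) and Pggt1b (-0.29, adjusted p = 0.0045), and Dhdds, which makes dolichol (-0.17, adjusted p = 0.0347). Dhdds was no longer called without any one library other than Prmt5 cKO library 1, with adjusted p from 0.0752 to 0.107, nor in DESeq2 (adjusted p = 0.0908). The median of these 10 was -0.08, against -0.90 for the 19 mevalonate and sterol enzymes.

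In sterol storage, transport and efflux, 5 of 15 genes rose and 1 fell, with a median of 0.05. Abca1, the transporter that exports cholesterol, averaged 113 CPM in Prmt5 cKO and 70.2 CPM in control libraries (log2 fold change 0.68 ± 0.07, adjusted p = 1.17e-04). Lipa, the lysosomal lipase that frees cholesterol (0.44, adjusted p = 1.5e-04), Soat1, which esterifies it (0.42, adjusted p = 0.0118), and Scarb1, an HDL receptor (0.20, adjusted p = 0.00912), rose as well. Nr1h3, the sterol sensor LXR alpha, rose by 1.01 on the log2 scale (adjusted p = 0.0234), but the call was lost without any one library other than Prmt5 cKO library 1, with adjusted p from 0.0614 to 0.0849. Erg28, a scaffold of the carbon-4 demethylation enzymes, fell by 0.50 on the log2 scale (adjusted p = 6.94e-04), the direction of Hsd17b7, Msmo1 and Nsdhl. Markers of fibroblasts, muscle and endothelium were also higher in these libraries, and their part in the rises was not tested.

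Other genes of fatty acid supply and acyl-CoA formation had the most falls of the 6 lists, with 14 of 21 lower, 2 higher and a median of -0.74, close to the -0.72 of the 32 members. The strongest by adjusted p were Elovl7, an elongase (-2.41, adjusted p = 3.8e-07), Acsl4, an acyl-CoA synthetase for arachidonate (-1.39, adjusted p = 6.8e-07), Hsd17b12, the ketoacyl reductase of elongation (-0.88, adjusted p = 1.81e-06), and Fabp5, the epidermal fatty acid binding protein (-1.90, adjusted p = 6.05e-06). Hacd1 (0.48, adjusted p = 0.00401), an elongation dehydratase of muscle, and Acsl3 (0.31, adjusted p = 0.0067), an acyl-CoA synthetase, rose. The 5 that did not pass were Acacb (-0.12), Mcat (-0.05), Oxsm (0.22), Elovl2 (0.13) and Mlxipl (2.27, adjusted p = 0.0858). Mlxipl, the carbohydrate-responsive factor ChREBP, had 0.341, 3.13 and 0.299 CPM in Prmt5 cKO libraries and 0.248, 0.302 and 0.228 CPM in control libraries, so its value rests on Prmt5 cKO library 2, without which the log2 fold change was 0.29 (adjusted p = 0.732). It passed without Prmt5 cKO library 1 (adjusted p = 0.0475) or 3 (0.0432), and with all 6 libraries in DESeq2 (adjusted p = 0.0199) and the authors' deposited table (0.0202), but not in limma. Mcat and Oxsm belong to the separate mitochondrial route of fatty acid synthesis.

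Triglyceride and phospholipid genes were split, with 5 of 13 lower, 4 higher and a median of 0.02. Dgat2, which completes triglycerides, lay between 30.6 and 34.4 CPM in Prmt5 cKO libraries and between 240.3 and 302.3 CPM in control libraries (log2 fold change -3.06, adjusted p = 2.02e-07). Gpam (-0.92, adjusted p = 3.48e-06) and Agpat3 (-0.81, adjusted p = 1.26e-05), which add acyl chains to glycerol phosphate, also fell, as did the phosphatidate phosphatase Lpin3 (-0.50, adjusted p = 0.00342) and Pcyt2 of phosphatidylethanolamine synthesis (-0.28, adjusted p = 0.0351). Plin2, a lipid droplet coat (0.49, adjusted p = 5.36e-04), Lpin1, another phosphatidate phosphatase (0.68, adjusted p = 0.00616), Lpcat3, a phospholipid acyltransferase (0.34, adjusted p = 0.00715), and choline kinase Chka (0.27, adjusted p = 0.0211) rose. The call of Pcyt2 was lost without Prmt5 cKO library 2 (adjusted p = 0.0526) or 3 (0.104) or control library 1 (0.102) or 3 (0.119), and that of Chka without Prmt5 cKO library 1 (0.0648). The other 4 had log2 fold changes of 0.03 for Agpat2, 0.02 for Lpin2, 0.20 for Dgat1 and -0.11 for Pcyt1a. Of 11 genes of fatty acid oxidation 1 fell and 2 rose. The carnitine palmitoyltransferases Cpt1a (0.29, adjusted p = 0.0146; lost without Prmt5 cKO library 3, adjusted p = 0.0567) and Cpt1b, the muscle form (1.80, adjusted p = 0.00361), rose, and the median was 0.08. Cpt1b had 12.4, 27.9 and 15.0 CPM in Prmt5 cKO libraries and 5.86, 3.53 and 6.63 CPM in control libraries.

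**Figure D5:**
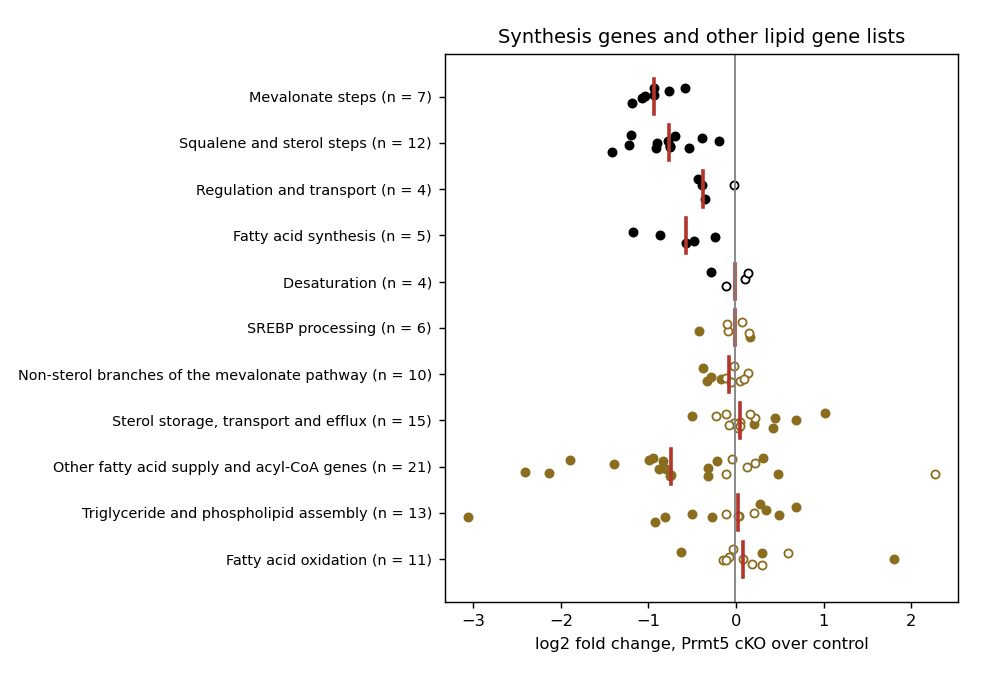
Log2 fold change (Prmt5 cKO over control) of every tested gene in the 5 role groups of members and in the 6 other lipid lists, 1 point a gene, filled where it passed the test, with the median of each as a bar. The mevalonate and sterol groups lie wholly below 0, with medians of -0.94 and -0.76, while sterol storage, transport and efflux has a median of 0.05.

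The authors' deposited DESeq2 table gave adjusted p under 0.05 to 27 of the 32 genes, all lower, and left Acat2 at 0.085. The authors' deposited Sleuth table also gave q under 0.05 to 27 genes, all lower. It differed in Fasn, with a q of 0.171, which joined Srebf1, Scd1, Fads1 and Fads2 among those that did not pass. With the Sleuth effect turned to a log2 scale, the authors' deposited table lay within 0.19 of the edgeR log2 fold change for every member, and the widest gap was at Scd1.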

How the data were processed

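Per the labels' protocols, RNA of E15.5 back skin was made into stranded mRNA libraries and read as paired ends. STAR, StringTie, DESeq2 and the build mm10 are named in the submitters' processing notes; which step made the counts, with which strand setting and annotation, is not given in the sources used here. Whole-number counts per gene identifier, as the authors deposited them, were the input to every test here. Totals exceed the number of reads the labels state, so a count may stand for less than 1 read. The mean normalized count (a signal), the log2 fold change, its standard error, the test score and the p-values are the authors' own, per the file headers of the deposited DESeq2 table. The Sleuth effect in the deposited table is a natural log, judged by its ratio to the log2 fold changes, and its q-values are the authors' own.

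The groups were compared by the quasi-likelihood test of edgeR 4.0.16 (R 4.3.3), after filterByExpr (19227 genes) and TMM scaling, with Benjamini-Hochberg adjustment over all genes tested and a threshold of 0.05. Standard errors were taken as the absolute log2 fold change over the root of F. CPM uses TMM-scaled library sizes, and RPKM divides it by union exon length from GENCODE M21 (GRCm38), which also gave the coordinates. Sequence shared between genes was measured in words of 31 bases. The edgeR step was tested on simulated counts. The alternatives comprised upper-quartile and RLE scaling, a filter of 1 CPM in 3 libraries or none, DESeq2 1.42.0, limma 3.58.1 (voom), a replicate block, each library left out, the authors' adjusted p and, added after the data were seen, a term for presence of Xist.

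The members and lists were chosen with earlier results of these data known. Named genes are all 32 members, Prmt5, from each other lipid list up to 4 called genes with the smallest adjusted p, and every gene where a count of 5 or fewer is given; marker and copy genes are named where a result touches them. One symbol, Spring1, was not matched, and values of some listed genes are not reported here. The embryos are separate animals.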

Additional observations from a re-analysis of the deposited data

How the results depend on the processing

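The count of members that fell lay between 25 and 28 over the alternatives run, and Acat2, Lbr and Fasn were the only ones of the 28 to lose their calls. No member rose except under upper-quartile scaling, where 2 did. Leaving out 1 library at a time gave 25 to 28 members lower and 0 higher, 3002 to 3293 genes lower and 2460 to 2780 higher over the whole table, 21 to 26 lower and 12 to 14 higher in the other lipid lists, and log2 fold changes of -1.28 to -0.91 for Prmt5. Where an arm kept 2 libraries, the spread was shared over all. Genes near 0 changed sign without passing the test in the main comparison. Srebf1 was at 0.001 with RLE size factors, with DESeq2 and in the authors' deposited table, at 0.085 with upper-quartile scaling, and between -0.218 and 0.083 with 1 library left out. With upper-quartile scaling Mbtps2 was at 0.015 and Mcat at 0.054. With 1 library left out Acacb lay between -0.428 and 0.129, Mcat between -0.20 and 0.048, Elovl2 between -0.092 and 0.306, Agpat2 between -0.168 and 0.148, and Lpin2 between -0.027 and 0.06. With a term for Xist, Elovl2 was at -0.055, Agpat2 at -0.035 and Lpin2 at -0.004. The cause of these changes was not tested.

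The numbers in the titles are not stated to pair the embryos. Deviations of same-numbered libraries from their group means correlated at -0.30, -0.047 and -0.249. With 3 libraries a group that also differed in Xist, these values cannot show whether same-numbered embryos shared a litter. With the replicate block 27 members fell and 0 rose, Acat2 being lost (log2 fold change -0.59, adjusted p = 0.061). With 3 embryos a group, small changes such as those of Fads1, Fads2 and Scd1 cannot be settled.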
